A study of Mus musculus with 5 samples.

Results

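Transcripts of 10 genes of the interleukin-6 (IL-6) cytokine family were followed in whole mouse lung, out of 21590 genes measured by RNA sequencing. They were chosen by symbol: the 4 ligands Il6, Lif, Il11 and Osm, the 4 receptor genes Il6ra, Il6st, Osmr and Lifr, the transcription factor gene Stat3 and its feedback inhibitor Socs3. All 10 are listed in each of the 4 comparison tables used. The lungs came from wild type mice and from mice lacking Cldn4 (Cldn4 KO), the gene of the epithelial tight junction protein claudin-4, and all animals shared a mixed 129S6, C57BL/6, BALB/c background. Unventilated lungs of both genotypes form the groups WT_noVILI and KO_noVILI. Lungs ventilated for 2 h at 40 cmH2O, a pressure that overstretches the lung and causes ventilator-induced lung injury (VILI), form WT_VILI, KO_VILIlow and KO_VILIhigh. KO_VILIlow holds knockouts whose injury resembled that of wild type, and KO_VILIhigh those injured more. The knockout groups were thus sorted by injury after ventilation, and comparisons with them describe lungs chosen by outcome. The design text gives duplicates for each group. The ages of the mice, and whether the Cldn4 deletion is constitutive, are not given in the sources used here.

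IL-6 family cytokines signal through receptor complexes that contain gp130, the protein encoded by Il6st. IL-6 and IL-11 bind a specific alpha receptor (Il6ra for IL-6) and then gp130, leukaemia inhibitory factor (LIF) uses the LIF receptor (Lifr) with gp130, and oncostatin M (Osm) uses the oncostatin M receptor (Osmr) with gp130. The complexes activate JAK kinases, which phosphorylate STAT3, and STAT3 induces Socs3, whose protein binds gp130 and JAKs and shuts the signal down. Socs3 mRNA is therefore widely read as an early target of this pathway in injured lung, although other cytokines and stress signals also induce it.

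The values come from the authors' comparison tables alone. They give no value per animal, no depth per library and no spread between replicates, and whether the duplicates were separate animals is not given in the sources used here. Group levels were rebuilt from the fold change and the mean abundance that the authors deposited, in CPM (read counts scaled to a common library size), and each is 1 value per group without an error of its own. Levels of both wild type groups came from the wild type comparison, and each knockout level from its own comparison. Small differences between printed levels can therefore depart in sign from the deposited fold change, which is the value to read. The lowest mean abundance in each table, carried by genes whose fold change is 0, was 0.238 to 0.387 CPM. It is called the floor here and marks where a level is no longer informative, although the level of a single group can be rebuilt below it. For both ventilated knockout tables the sample labels name unventilated wild type beside the knockout, whereas their reference levels, rebuilt from the values, lie closest to WT_VILI. Both tables are read against WT_VILI throughout, and every value of KO_VILIlow and KO_VILIhigh against WT_VILI rests on that reading. Cldn4 was checked first: its rebuilt level was 8.98 CPM in WT_noVILI and 140 CPM in WT_VILI, and below the floor in all knockout groups. Lung epithelial markers were abundant in every group, with Ager, a type 1 cell gene, between 1575 and 1921 CPM. Sex-linked transcripts differed between groups. Xist, the female-specific RNA of X inactivation, had levels of 890 and 505 CPM in WT_noVILI and KO_noVILI and between 2.56 and 6.13 CPM in the ventilated groups, while the Y-linked Ddx3y was near 0 in the former and between 90.7 and 115 CPM in the latter, so sex and ventilation cannot be told apart in any comparison of ventilated with unventilated lungs.

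The sequences upstream of Il6, Lif and Socs3 are shown because the results below turn on these genes. RefSeq windows (GRCm38.p6) were found for 9 of the 10 genes, and the 250 bases before the annotated start were searched on both strands. The motifs were the STAT palindrome TTCNNNGAA, the AP-1 site TGANTCA, the cyclic AMP response element TGACGTCA and the NF-kB consensus. No matches of different motifs overlap in the printed windows. Capitals mark the matches, and each sequence is written 5′ to 3′ on the strand of its gene.
Il6, chr5:30012864-30013113, plus strand: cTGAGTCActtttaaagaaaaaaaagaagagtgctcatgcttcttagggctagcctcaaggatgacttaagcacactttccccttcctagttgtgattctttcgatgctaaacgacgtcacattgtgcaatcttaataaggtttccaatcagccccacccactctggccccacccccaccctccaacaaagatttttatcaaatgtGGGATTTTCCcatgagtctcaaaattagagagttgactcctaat
Lif, chr11:4257318-4257567, plus strand: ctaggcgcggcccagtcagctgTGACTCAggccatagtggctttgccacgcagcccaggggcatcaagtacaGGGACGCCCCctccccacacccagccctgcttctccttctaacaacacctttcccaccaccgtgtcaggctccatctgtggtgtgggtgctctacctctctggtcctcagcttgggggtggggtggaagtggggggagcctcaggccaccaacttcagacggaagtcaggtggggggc
Socs3, chr11:117969367-117969616, minus strand: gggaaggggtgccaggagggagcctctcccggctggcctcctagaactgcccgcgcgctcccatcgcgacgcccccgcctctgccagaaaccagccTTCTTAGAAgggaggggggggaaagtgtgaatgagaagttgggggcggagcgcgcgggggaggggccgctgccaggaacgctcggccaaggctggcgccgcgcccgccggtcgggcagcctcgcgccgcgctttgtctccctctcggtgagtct
The Il6 window holds an AP-1 match beginning 249 bases and an NF-kB match beginning 44 bases before the start. Lif has the same pair of motifs, beginning 228 and 178 bases before the start. The Socs3 window holds a STAT palindrome, beginning 154 bases before the start, and no match to the other 3 motifs. Of all 32851 windows of this length, 7.02% hold the STAT palindrome, 6.75% AP-1, 7.25% NF-kB and 1.55% the cyclic AMP response element. Of the other members with a window, Il11 has an AP-1 match in one of its 2 windows, and Il6ra, Il6st, Osmr, Lifr and Stat3 have no match in theirs. A match describes letters in the window only.

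In wild type lungs 3 of the 4 ligands, Il6, Lif and Osm, were higher after ventilation, as were Socs3, Il6ra and Stat3. In knockout lungs injured more than wild type, the same ligands and Socs3 were higher again than in ventilated wild type. The levels of these 4 genes ordered the ventilated groups alike, WT_VILI lowest and KO_VILIhigh highest. At rest no member passed in the authors' edgeR table: 0 of 10 had an adjusted p under 0.05 or an unadjusted p under 0.05 (1.45% of all 21590 genes were called higher and 1.92% lower). In WT_VILI against WT_noVILI 6 of 10 were called higher and 0 lower, beside 4.85% and 4.23% of all genes. In KO_VILIlow against WT_VILI 2 of 10 were called higher, Lif and Socs3, and 0 lower, beside 0.676% and 0.296% of all genes. In KO_VILIhigh against WT_VILI 4 of 10 were called higher, Il6, Lif, Osm and Socs3, and 0 lower, beside 1.13% and 0.435% of all genes. The same shares stand beside the counts of called list genes and markers given below for these comparisons. Both ventilated knockout tables share the WT_VILI group, which is also the tested group of the wild type table, so these comparisons are not independent. The members and lists were chosen with earlier results of these data known, so their counts beside these shares describe and do not test. The shares also cover 3870 to 4121 genes per comparison that lie at the floor with a fold change of 0.

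**Figure D1:**
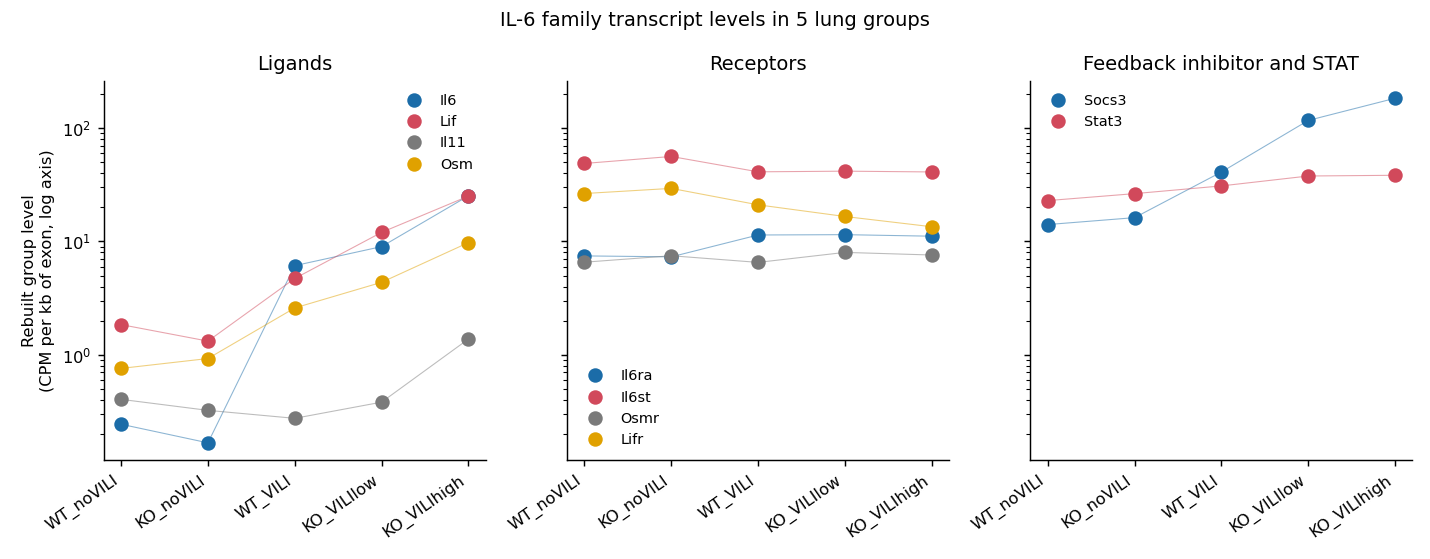
Rebuilt group levels of the 10 genes, in CPM per kb of exon on a log axis, for the 5 groups. Each point is 1 group level, and thin lines only join points of a gene. Il6, Lif, Osm and Socs3 climb from WT_VILI to KO_VILIhigh, while Il6st and Osmr stay within a narrow band.

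Il6 encodes IL-6, the founding ligand, made by macrophages, fibroblasts, endothelium and epithelium during acute inflammation. Its rebuilt level was 0.59 CPM in WT_noVILI and 0.405 CPM in KO_noVILI, just above the floor. In ventilated lungs it stood at 14.8 CPM in WT_VILI, 21.9 CPM in KO_VILIlow and 61.4 CPM in KO_VILIhigh. All ventilated groups were far above both unventilated groups. In the authors' deposited table Il6 rose by 4.65 on the log2 scale in WT_VILI (adjusted p = 3.75e-21), a change larger than that of 99.9% of expressed genes, meaning here those whose mean log2 CPM was 1 or more. That size is a fitted value, since it is set against a level close to the floor. The level of Il6 in WT_VILI was 12.9 to 14.8 CPM when rebuilt from each of the 3 tables that hold the group, but 38.7 CPM if the abundance column is read as a mean of log2 levels (1.54 CPM in WT_noVILI). In whole lung, more cells of a type and more RNA per cell cannot be told apart. Against WT_VILI, Il6 was 2.24 higher in KO_VILIhigh (adjusted p = 0.000182, authors' edgeR table). In KO_VILIlow the difference of 0.76 did not pass (adjusted p = 0.346, approximate 95% interval 0.20 to 1.32, read back from the authors' deposited p).

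Lif encodes leukaemia inhibitory factor, which is made by injured epithelium and protects lung tissue in pneumonia models. It stood at 8.02 CPM in WT_noVILI, 5.73 CPM in KO_noVILI, 20.5 CPM in WT_VILI, 52.3 CPM in KO_VILIlow and 109 CPM in KO_VILIhigh. Lif was the one ligand called in both ventilated knockout groups against WT_VILI. The authors' deposited table gave a rise of 1.35 on the log2 scale in WT_VILI (adjusted p = 1.01e-06). Against WT_VILI it was 1.49 higher in KO_VILIlow (adjusted p = 0.000179) and 2.56 higher in KO_VILIhigh (adjusted p = 3.55e-24), both in the authors' edgeR tables. At rest the knockout value was -0.48, which did not pass (adjusted p = 0.466, authors' deposited table).

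Osm encodes oncostatin M, a product of neutrophils, macrophages and T cells. Its levels were 1.72 CPM in WT_noVILI, 2.1 CPM in KO_noVILI, 5.88 CPM in WT_VILI, 9.9 CPM in KO_VILIlow and 22.2 CPM in KO_VILIhigh. The order of the ventilated groups matched that of Il6 and Lif. Osm rose by 1.77 in WT_VILI (adjusted p = 0.000404) and was 2.18 higher in KO_VILIhigh than in WT_VILI (adjusted p = 2.6e-07) in the authors' deposited tables. The difference of 1.00 in KO_VILIlow did not pass (adjusted p = 0.112, approximate 95% interval 0.38 to 1.61).

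The summed level of neutrophil markers stood in the same group order as Osm, an order that Socs3 and Stat3 shared. Over 13 markers it was 174 CPM in WT_noVILI, 180 CPM in KO_noVILI, 679 CPM in WT_VILI, 874 CPM in KO_VILIlow and 1229 CPM in KO_VILIhigh. In WT_VILI 11 of 13 were called higher and none lower, beside 4.85% and 4.23% of all genes. The median was 2.30 over the 11 expressed ones. At rest 1 of 13, the granule gene Ngp, was called higher in the knockout, at 2.93 (adjusted p = 0.0285, authors' deposited table). Against WT_VILI 1 of 13 was called higher in KO_VILIlow and 2 in KO_VILIhigh, beside 0.676% and 1.13% of all genes. The granule gene Elane was at the floor in all 5 groups. The part of these cells in the results for Osm and the other members was not tested.

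Il11 encodes interleukin-11, a cytokine of stromal cells tied to fibrosis. It was barely detected, at 0.839 CPM in WT_noVILI, 0.671 CPM in KO_noVILI, 0.571 CPM in WT_VILI and 0.793 CPM in KO_VILIlow. Rebuilt from the knockout comparison instead, WT_noVILI stood at 0.578 CPM, and the deposited log2 value of KO_noVILI was 0.21. Only KO_VILIhigh stood above these values, at 2.86 CPM. The log2 difference of 2.45 from WT_VILI did not pass (unadjusted p = 0.00422, adjusted p = 0.157, authors' edgeR table), and it too is a fitted value near the floor. For Il11 a change was not detectable at these levels in the other 3 tables.

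Il6ra encodes the ligand-binding IL-6 receptor, present on hepatocytes and leukocytes and also shed in soluble form. It was the one receptor called in WT_VILI, and its level was 64.4 CPM in unventilated wild type and 63.2 CPM in unventilated knockout lungs, beside 98.5 CPM in WT_VILI, 99.2 CPM in KO_VILIlow and 96.1 CPM in KO_VILIhigh. The unventilated pair and the ventilated trio each lay close together. In the authors' deposited table Il6ra rose by 0.61 in WT_VILI (adjusted p = 0.00244). Against WT_VILI it was at 0.03 in KO_VILIlow (approximate 95% interval -0.36 to 0.42) and at -0.02 in KO_VILIhigh (interval -0.49 to 0.45), and neither passed (adjusted p = 1 in both authors' deposited tables).

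Il6st encodes gp130, the shared signalling chain. Its level was 542 CPM in WT_noVILI, 625 CPM in KO_noVILI, 457 CPM in WT_VILI, 463 CPM in KO_VILIlow and 456 CPM in KO_VILIhigh. The ventilated groups were almost level with one another and below the unventilated ones, but the log2 value of -0.25 in WT_VILI did not pass (adjusted p = 0.304, authors' deposited table). Against WT_VILI the deposited log2 values were -0.05 in KO_VILIlow and -0.05 in KO_VILIhigh. Osmr encodes the oncostatin M receptor chain, prominent on stromal and endothelial cells. It ran from 79.1 CPM in WT_VILI to 96.9 CPM in KO_VILIlow, with 79.4, 90.6 and 91.9 CPM in WT_noVILI, KO_noVILI and KO_VILIhigh. No comparison passed for Osmr, and the widest approximate 95% interval of its log2 difference, in KO_VILIhigh against WT_VILI, was -0.33 to 0.82.

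Lifr encodes the LIF receptor chain, and its levels went the other way from those of its ligand. They were 285 CPM in WT_noVILI, 317 CPM in KO_noVILI, 227 CPM in WT_VILI, 179 CPM in KO_VILIlow and 145 CPM in KO_VILIhigh. Both unventilated groups were above all ventilated groups, and KO_VILIhigh was the lowest. The single steps did not pass in the authors' edgeR tables: the log2 values were -0.33 in WT_VILI (adjusted p = 0.135), -0.38 in KO_VILIlow against WT_VILI (adjusted p = 0.822) and -0.67 in KO_VILIhigh against WT_VILI (adjusted p = 0.0599). When adjustment covered expressed genes alone, the last of these passed (adjusted p = 0.0391). The summed step within the knockout is given with the derived contrasts.

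Stat3 encodes the transcription factor itself. It stood at 219 CPM in WT_noVILI, 252 CPM in KO_noVILI, 295 CPM in WT_VILI, 360 CPM in KO_VILIlow and 366 CPM in KO_VILIhigh. Stat3 rose by 0.43 in WT_VILI (adjusted p = 0.0176, authors' deposited table), a small change larger than that of 74.4% of expressed genes. Its differences of 0.24 and 0.28 from WT_VILI in KO_VILIlow and KO_VILIhigh did not pass (adjusted p = 1 and 0.964, authors' edgeR tables).

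Socs3, the feedback inhibitor, reached the highest level per kb of exon among the 10 genes in the knockout ventilated groups. It stood at 40.7 CPM in WT_noVILI, 46.9 CPM in KO_noVILI, 119 CPM in WT_VILI, 338 CPM in KO_VILIlow and 531 CPM in KO_VILIhigh. The unventilated groups were close together, and both ventilated knockout groups were well above ventilated wild type. The authors' deposited tables gave a rise of 1.54 in WT_VILI (adjusted p = 2.08e-15), and against WT_VILI a further 1.52 in KO_VILIlow (adjusted p = 4.2e-10) and 2.18 in KO_VILIhigh (adjusted p = 3.03e-11). On the scale of CPM per kb of exon (exon union of GENCODE M21), Socs3 went from 14.1 in WT_noVILI to 184 in KO_VILIhigh, and gp130 from 48.8 to 41.1. On the same scale Il6 went from 0.243 to 25.3, Lif from 1.84 to 25.1 and Osm from 0.757 to 9.76. The ligands therefore began below the receptor chains, the nearest pair in WT_noVILI being Lif (1.84) and Osmr (6.56). In KO_VILIhigh Il6 and Lif stood above Il6ra (11.1), Osmr (7.59) and Lifr (13.5) per kb. The exon union counts exons of all annotated isoforms, 12.1 kb for Osmr beside 2.43 kb for Il6, so this ranking across genes is approximate.

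**Figure D2:**
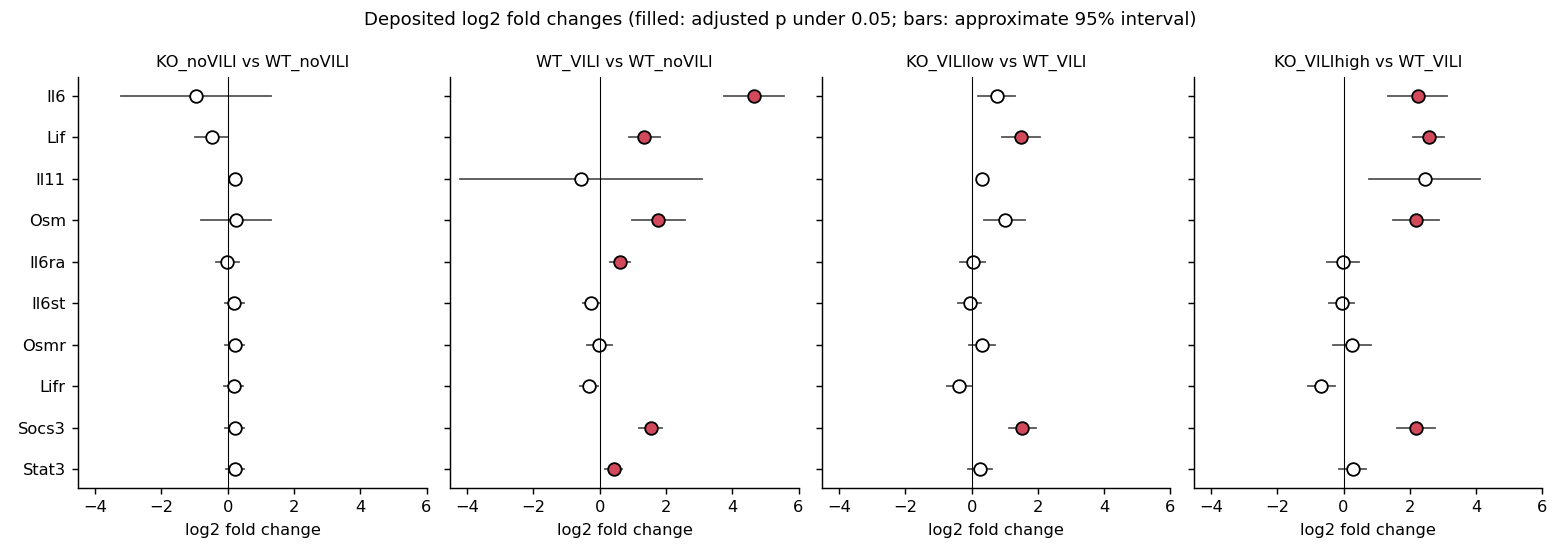
Deposited log2 fold changes of the 10 genes in the 4 tables. Filled points have an adjusted p under 0.05, and bars are approximate 95% intervals read back from the deposited p, absent where that p is 1. Lif and Socs3 are filled in all 3 tables with ventilated lungs, and no receptor is filled in the tables against WT_VILI.

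The next question was whether the knockout differed from wild type more with ventilation than without it. Sex-linked transcripts differed between unventilated and ventilated groups, so a dependence on ventilation and one on sex cannot be told apart in this contrast. For this contrast the log2 difference of KO_noVILI from WT_noVILI was subtracted from that of each ventilated knockout group from WT_VILI, 4 separate groups in each case. The approximate normal test was adjusted over the genes expressed in both comparisons used, 12661 for KO_VILIlow and 12782 for KO_VILIhigh. Of the 7 members expressed in every table used, Lif and Socs3 passed at both injury grades. For Lif the excess was 1.97 ± 0.39 (approximate SE, log2) in KO_VILIlow (Benjamini-Hochberg adjusted p = 0.000131) and 3.05 ± 0.35 in KO_VILIhigh (adjusted p = 4.87e-15). For Socs3 it was 1.31 ± 0.26 (adjusted p = 9.34e-05) and 1.97 ± 0.33 (adjusted p = 8.07e-07). Lifr passed in the negative direction in KO_VILIhigh, at -0.85 ± 0.25 (adjusted p = 0.0461), but not in KO_VILIlow, at -0.56 ± 0.23 (adjusted p = 0.566). The Lifr call was lost when each table was centred on its median gene (adjusted p = 0.0544). For KO_VILIlow 2 of 7 members passed as higher and 0 as lower, beside 0.932% and 0.237% of all genes tested. For KO_VILIhigh 2 of 7 passed as higher and 1 as lower, beside 1.19% and 0.383%. Il6 and Osm were too low at rest to be tested at the minimum mean log2 CPM of 1. For Osm a lowered minimum is reported only for the contrasts within the knockout, below. The untested values of Il6 were 1.72 for KO_VILIlow (approximate 95% interval -0.62 to 4.05) and 3.19 for KO_VILIhigh (0.76 to 5.63). Those of Osm were 0.75 for KO_VILIlow (-0.48 to 1.97, which includes 0) and 1.93 for KO_VILIhigh (0.66 to 3.20).

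**Figure D3:**
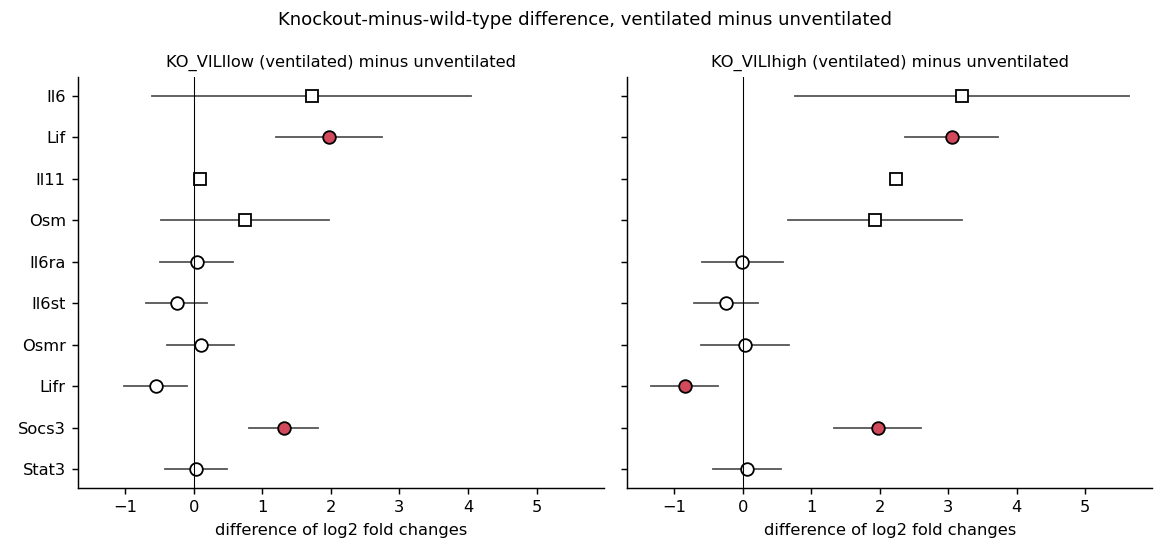
Knockout-minus-wild-type log2 difference in ventilated lungs minus the same difference in unventilated lungs, for KO_VILIlow (left) and KO_VILIhigh (right). Circles were tested, squares were too low to test, filled circles have an adjusted p under 0.05, and bars are approximate 95% intervals. Lif and Socs3 lie to the right of 0 in both panels and Lifr to the left.

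Within the knockout, ventilation was read by chaining the deposited fold changes, a conservative test because the wild type groups cancel while their variance is still counted. Lif rose by 3.33 ± 0.46 (approximate SE, log2) in KO_VILIlow against KO_noVILI (adjusted p = 1.9e-10) and by 4.40 ± 0.42 in KO_VILIhigh (adjusted p = 3.08e-22). Socs3 rose by 2.85 ± 0.31 (adjusted p = 1.25e-16) and 3.51 ± 0.37 (adjusted p = 2.19e-18). Lifr fell by 0.89 in KO_VILIlow (SE 0.27, adjusted p = 0.0349) and fell by 1.18 in KO_VILIhigh (SE 0.29, adjusted p = 0.00212). With each table centred on its median gene the KO_VILIlow call for Lifr was lost (adjusted p = 0.0524). In both groups 2 of 7 tested members were called higher and 1 lower, beside 2.22% and 1.31% of all genes tested in KO_VILIlow and 2.45% and 1.42% in KO_VILIhigh. Il6ra, Il6st, Osmr and Stat3 did not pass in either group, with Il6ra at 0.65 and 0.61 and Stat3 at 0.46 and 0.50. Il6 and Osm were below the abundance minimum. Chained values of Il6 were 6.37 ± 1.28 in KO_VILIlow and 7.85 ± 1.33 in KO_VILIhigh, fitted values set against a level near the floor. Those of Osm were 2.52 ± 0.75 in KO_VILIlow and 3.70 ± 0.76 in KO_VILIhigh. With the minimum lowered to a mean log2 CPM of 0, Osm passed in both (adjusted p = 0.0263 and 1e-04).

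The 2 injury grades of ventilated knockouts were then set against each other. None of the 9 tested members passed in this approximate normal test (0.15% of all genes tested were called higher and 0.0158% lower), and 3 had an unadjusted p under 0.05: Il6, Lif and Osm. All 3 were higher in KO_VILIhigh, Il6 by 1.48 (approximate 95% interval 0.42 to 2.53), Lif by 1.07 (0.33 to 1.81) and Osm by 1.18 (0.26 to 2.11). Socs3 was at 0.66 (interval -0.04 to 1.35). The receptors Il6ra, Il6st and Osmr were at -0.05, 0.00141 and -0.07, and the widest of their intervals, that of Osmr, was -0.77 to 0.62. Lifr was at -0.29 (interval -0.83 to 0.24). Shared variance makes this test conservative, and a call missed here does not show that the grades were alike.

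Among the other family members, no ligand or receptor outside the 10 was called in a table with ventilated lungs. The list of 8 further ligands had none called in WT_VILI, KO_VILIlow or KO_VILIhigh, and 4 of the 8 were expressed by the measure above. Clcf1, cardiotrophin-like cytokine, was lower at rest in the knockout, at -0.67 (adjusted p = 0.0392, authors' deposited table). None of 5 further receptors passed in any deposited table; reads of Il11ra1 and Il11ra2 can be shared between these near-identical copies. Cntf, Ctf2, Il27 and Il31 were below 1 CPM in all 5 groups, so a change in them was not detectable.

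Of 13 kinases, other STATs and phosphatases, 4 were lower and 1 higher in WT_VILI, beside 4.23% and 4.85% of all genes. The list median was -0.24, beside -0.02 for all expressed genes. Among the lower ones in the authors' deposited table were the transcription factor gene Stat2 (-0.70), the phosphatase gene Ptpn6 (-0.87) and the kinase gene Tyk2 (-0.65). The higher one was Ptpn2, a phosphatase gene, at 0.58 (adjusted p = 0.0276, authors' edgeR table), named after its value was seen. None of the 13 passed in KO_VILIlow or KO_VILIhigh against WT_VILI. Within the knockout Stat2 fell by 1.34 in KO_VILIlow (adjusted p = 0.00124) and fell by 1.23 in KO_VILIhigh (adjusted p = 0.0134) in the chained approximate test. Stat3 was the only STAT gene measured that passed in the upward direction in WT_VILI.

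Among feedback inhibitors other than Socs3, 3 of 9 were higher in WT_VILI and none lower: Cish, a JAK-STAT inhibitor best known as a STAT5 target, at 0.90 (adjusted p = 4.8e-06), Socs7 at 0.49 and Socs6 at 0.52 in the authors' deposited table. Cish was also the only one of the 9 called in KO_VILIhigh against WT_VILI, at 1.15 (adjusted p = 0.00277, authors' edgeR table), and none was called in KO_VILIlow. Cish stood at 31.6 CPM in WT_noVILI, 37.6 CPM in KO_noVILI, 59 CPM in WT_VILI, 86.7 CPM in KO_VILIlow and 126 CPM in KO_VILIhigh, the same order as Socs3. Of 4 genes for shedding of the IL-6 receptor, Rhbdf2, a partner of the sheddase ADAM17, was called in WT_VILI (0.58, adjusted p = 0.00689) and in KO_noVILI (0.46, adjusted p = 0.0472) in the authors' deposited tables.

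Of genes that control the life of Il6 mRNA, 3 of 6 were higher in WT_VILI and none lower: Arid5a, which stabilises Il6 mRNA, at 2.11 (adjusted p = 4.79e-32), and Zfp36 and Zc3h12a, which destabilise it, at 1.21 (adjusted p = 1.14e-10) and 1.03 (adjusted p = 2.07e-05) in the authors' deposited table. In KO_VILIhigh against WT_VILI Zfp36 was higher by 1.78 (adjusted p = 1.4e-10) and Zc3h12a by 1.17 (adjusted p = 0.000681), and in KO_VILIlow none of the 6 passed (authors' edgeR tables). Zfp36 stood at 164 CPM in WT_noVILI, 94.7 CPM in KO_noVILI, 379 CPM in WT_VILI, 530 CPM in KO_VILIlow and 1344 CPM in KO_VILIhigh. It was lower in the knockout at rest, at -0.77 (adjusted p = 0.000356, authors' deposited table), and higher in KO_VILIhigh than in KO_VILIlow by 1.36 ± 0.31 (adjusted p = 0.0118, approximate normal test).

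Of 28 genes known to respond to STAT3, 13 rose and none fell in WT_VILI, beside 4.85% and 4.23% of all genes. Many of the 28 also respond to glucocorticoid, NF-kB or stress signals. The median of the 24 expressed ones was 0.54, beside -0.02 for all expressed genes. The smallest p values were those of the metallothioneins Mt2 (3.26) and Mt1 (2.47), the growth regulator Myc (2.05) and the survival gene Bcl2l1 (1.35) in the authors' deposited table. Against WT_VILI, 4 of 28 were higher in KO_VILIlow and 9 of 28 in KO_VILIhigh, and none was lower in either. The medians over the 25 expressed ones were 0.34 and 0.52, beside -0.01 and 0 for all expressed genes. The 4 in KO_VILIlow were Mt2 (1.53), Mt1 (1.05), the kinase gene Pim1 (0.90) and Saa3 (2.45), an acute-phase protein, in the authors' deposited table. The Saa3 value is set against 0.826 CPM in WT_VILI, near the floor. In KO_VILIhigh the smallest p values in the authors' edgeR table were those of Junb (1.91, adjusted p = 8.73e-16), Pim1 (1.76, adjusted p = 1.85e-10), Mt2 (1.90) and Myc. By size of the fold change Saa3 came first, at 2.75 (adjusted p = 0.0101), again from a level near the floor. At rest 2 were higher and 1 lower in the knockout: Ccnd1 (0.67) and Saa3 (1.77) up, and Junb down (adjusted p = 0.000664), as the authors' deposited table lists them.

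**Figure D4:**
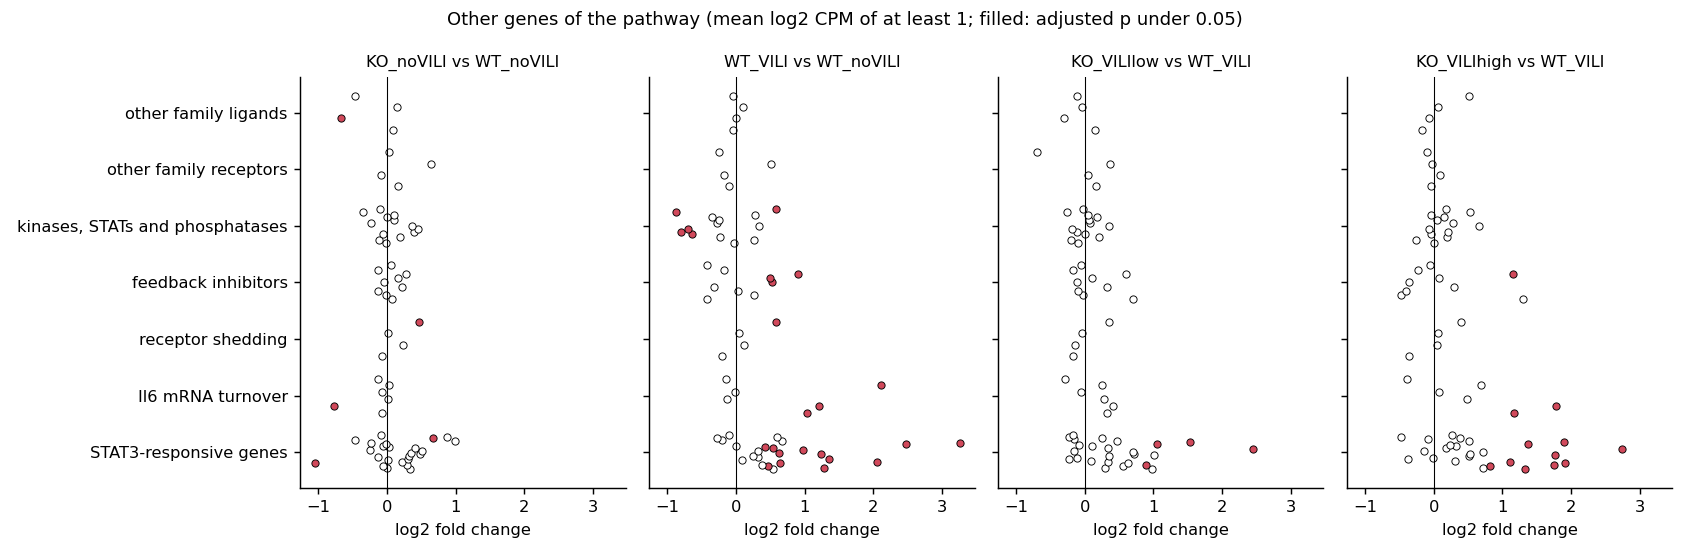
Log2 fold changes of the other genes of the pathway by list, in the 4 deposited tables. Each point is 1 expressed gene, and filled points have an adjusted p under 0.05. Filled points of the STAT3-responsive list lie to the right of 0 in the 3 tables with ventilated lungs, and in WT_VILI the filled points of the kinase and STAT list lie mostly to the left.

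Markers of other cells of the lung were counted in the same way. Of all genes 4.85% were called higher and 4.23% lower in WT_VILI. Against WT_VILI the shares were 0.676% and 0.296% in KO_VILIlow, and 1.13% and 0.435% in KO_VILIhigh. A single call in a list this short is not read as a difference. Those of monocytes and macrophages gave 3 lower and none higher of 12 in WT_VILI, and 1 higher in KO_VILIlow and 2 in KO_VILIhigh against WT_VILI. Their summed level was between 5298 and 6693 CPM in all groups, but most of it was Lyz2 alone, at 4666 to 5987 CPM. The 3 lower ones, from WT_noVILI to WT_VILI, were Ccr2 (45.1 to 12.2 CPM), Cx3cr1 (21.5 to 4.91 CPM) and Chi3l3 (245 to 106 CPM). Of the 12 log2 values in WT_VILI, 8 were negative and 4 positive. The largest positive one was that of the monocyte gene Ly6c2 (48.7 to 78.7 CPM), at 0.69, which did not pass (adjusted p = 0.0601, authors' deposited table). Endothelial markers gave 3 lower of 11 in WT_VILI and none called in the ventilated knockout tables, with sums of 6458, 7455, 5979, 6244 and 5464 CPM from WT_noVILI, KO_noVILI and WT_VILI to KO_VILIlow and KO_VILIhigh. Fibroblast and smooth muscle markers gave 3 higher and 2 lower of 11 in WT_VILI, with none called against WT_VILI in the knockouts. Alveolar epithelial markers gave 2 higher and 2 lower of 13 in WT_VILI, and 1 lower in KO_VILIhigh. Cardiac muscle markers were higher than in WT_VILI in 7 of 8 cases in KO_VILIlow and 2 of 8 in KO_VILIhigh, and lower in KO_noVILI than in WT_noVILI in 6 of 8, with sums of 664, 262, 431, 1066 and 735 CPM in the same group order. Airway markers were lower in WT_VILI in 3 of 10 cases, and against WT_VILI higher in KO_VILIhigh in 3 and lower in KO_VILIlow in 1. Lymphocyte markers were lower in WT_VILI in 1 of 10 cases, and lower in KO_VILIlow than in WT_VILI in 4. Of 4 red blood cell markers, 1 was lower in WT_VILI and 1 higher in KO_VILIhigh. Marker calls were also made in the resting knockout against WT_noVILI, the comparison that is subtracted in the genotype difference with minus without ventilation. At rest 1.45% of all genes were called higher and 1.92% lower. The macrophage gene Marco was higher by 1.62 (adjusted p = 1.04e-06) and the endothelial gene Sox18 by 0.68 (adjusted p = 0.0120) in the authors' edgeR table. Of 11 fibroblast and smooth muscle markers 3 were lower, Acta2 (-0.82), Myh11 (-0.80) and Dcn (-0.77) in the authors' deposited table, and none was called higher. The list as a whole did not fall: 7 of the 11 log2 values were positive and 4 negative, with a median of 0.20. Airway and lymphocyte markers gave 4 lower of 10 each and none higher, and alveolar and red blood cell markers gave no call. What these markers contribute to the IL-6 family values was not tested.

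Genes with the pattern most like a member were found by the Euclidean distance over the 4 deposited log2 fold changes, among genes expressed in all 4. Nearest to Lif was Socs3, at a distance of 0.82, followed by Ch25h, Xirp1, Fosl1 and Flnc, at up to 1.26. Nearest to Socs3 were Fosl1 (0.65), Cd14 (0.78), Timp1 (0.78), Lif and Gfpt2 (0.91). Il6, Il11 and Osm could not appear as neighbours, being under a mean log2 CPM of 1 at rest (0.951 for Osm). The log2 values of Osm were 0.25 at rest, 1.77 in WT_VILI, and 1.00 and 2.18 in KO_VILIlow and KO_VILIhigh. They lay near those of Socs3, at 0.21, 1.54, 1.52 and 2.18. For Il6 no gene was close: Mt2 was the nearest at 1.78, then Atf3, Thbs1, Krtap17-1 and Has1, at up to 2.15. Osmr had as nearest genes Ccdc25, Abcf2, Emc10, Nme2 and Fpgs, all within 0.09 and none called in any table.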

How the data were processed

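RNA of whole lungs was sequenced in 5 groups; the labels hold 1 record per group, and the design text gives 2 libraries. Per the submitters' processing notes, the authors used Bowtie 1.1.2, mouse build mm9, R 3.0.1 and edgeR; counting, filter and edgeR settings are not given in the sources used here. The authors deposited 4 tables of 21590 genes with log2 fold changes, mean log2 CPM, and p-values with adjusted p-values, per the file headers. Depth is unknown.

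Both ventilated knockout tables were read against WT_VILI, although the labels list them under unventilated and not under ventilated wild type: over 10562 genes their rebuilt reference differed from WT_VILI by a median of 0.0491 and 0.045 log2, and from WT_noVILI by 0.205 and 0.203. Fold changes of exactly 0 at a mean log2 CPM of at least 3 (47 to 88 genes per table) include no member. Genes were called at an adjusted p of 0.05. In 5 derived contrasts the authors' deposited log2 fold changes were added or subtracted, with each standard error taken as the fold change over the normal quantile of its p, variances summed, and Benjamini-Hochberg adjustment over genes whose mean log2 CPM was 1 or more. The procedure was run on simulated data whose errors were normal and whose p came from the same formula. That run checks the arithmetic and cannot show whether errors read back from the authors' p are right. Levels assume the abundance to be the log2 of the mean of both groups. Members and lists were chosen with earlier results of these data known. Beside the members, up to 4 called genes per list and comparison with the smallest p are named, except 1 gene that is not reported here, and by likeness the 5 nearest genes of 4 members. Ager, Elane, Lyz2, Ly6c2, Ptpn2, Saa3 in KO_VILIhigh and the ligands named as low were chosen after their values were seen. Of 14 neutrophil markers 13 were matched, and of 7 red blood cell markers 4. Computation used Python 3.11.15 with scipy 1.17.1 and pandas 2.3.3. Alternatives were other thresholds, adjustments, abundance minimums, centring and readings of the abundance column.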

Additional observations from a re-analysis of the deposited data

Results flagged for a closer look

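The following values were singled out because the knockout-minus-wild-type difference was not the same in ventilated as in unventilated lungs by the approximate test of that difference itself. Ventilated and unventilated lungs also differed in sex-linked transcripts, so ventilation and sex cannot be told apart in these values. For Lif the differences of log2 fold changes were 1.97 in KO_VILIlow and 3.05 in KO_VILIhigh. For Socs3 they were 1.31 and 1.97. For Lifr the value was -0.85 in KO_VILIhigh, the one negative value of the 5, with the largest adjusted p (0.0461). At rest the knockout values were -0.48 for Lif, 0.21 for Socs3 and 0.18 for Lifr in the authors' deposited table. With 1 level per group, no sample could be compared with others of its group.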

How the results depend on the processing

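No paired analysis was possible because the tables hold no columns per library, and for the same reason no replicate could be left out. A stricter adjusted p of 0.01 left 362 called genes in KO_noVILI, 1240 in WT_VILI, 132 in KO_VILIlow and 215 in KO_VILIhigh, and Bonferroni adjustment left 163, 530, 76 and 122. With Bonferroni adjustment 3 of the 6 members called in WT_VILI remained past the threshold, Il6, Lif and Socs3; Osm, Il6ra and Stat3 did not, and at 0.01 Stat3 did not. In the ventilated knockout tables the member calls were unchanged under both. In the derived contrasts a threshold of 0.01 left 7 genes in KO_VILIhigh against KO_VILIlow, 287 and 310 in KO_VILIlow and KO_VILIhigh against KO_noVILI, and 93 and 106 for the genotype difference with minus without ventilation in KO_VILIlow and KO_VILIhigh. Both Lifr calls with an adjusted p above 0.01, in KO_VILIlow against KO_noVILI and in the genotype difference for KO_VILIhigh, were lost at that threshold and with centring. Centring on the median gene turned the sign of 2 values near 0: Osmr in WT_VILI, to 0.0184, and Il6ra in the genotype difference with minus without ventilation in KO_VILIhigh, to 0.0123. Reading the abundance column as a mean of log2 levels moved 7 of 50 rebuilt levels by more than the approximate error of their fold change, and rebuilding WT_VILI from the other 2 tables moved none of 10 that far. The cause was not tested. Depth per library is unknown, and Il6, Il11 and Osm in unventilated lungs are limited by levels near the floor.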
